A study of Mus musculus with 12 samples.

Results

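The 10 genes Thy1, Cd44, Eng, Nt5e, Lepr, Cxcl12, Ly6a, Vcam1, Alcam and Kitl encode surface proteins by which mesenchymal stem cells are recognised and signals that such cells give in the bone marrow. Their open chromatin was compared between mouse cells of 5 groups in 12 ATAC-seq libraries. ATAC-seq cuts DNA with a transposase that inserts where chromatin is open, and a peak is a stretch with more insertions than its surroundings. Peaks of all 12 libraries that shared at least 1 bp on chromosomes 1 to 19 and X were merged into 153346 regions. The 192 regions whose nearest protein-coding gene, within 100 kb, was one of the 10 genes are described here, and all 10 genes had at least 1 region. A library called a region if at least 1 of its own peaks touched that region. The rule on distance left out 66 further regions that had one of the 10 genes as their nearest gene. Just inside the limit lay an Nt5e region at 98799 bp, called in 2 libraries, and just outside it a Cxcl12 region at 100312 bp, also called in 2.

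Mesenchymal stem cells of bone are stromal cells that can form bone, cartilage and fat. Laboratories sort them by Thy1 (CD90), Cd44, Eng (CD105) and Nt5e (CD73), in the mouse also by Ly6a (Sca-1), Vcam1 (CD106) and Alcam (CD166). In the marrow, stromal cells that carry the leptin receptor Lepr surround blood vessels and are a main source of the chemokine Cxcl12, which holds blood stem cells in place through the receptor Cxcr4, and of Kitl, or stem cell factor, which maintains them through the receptor Kit. An open region near such a gene is a candidate regulatory element, and a call says nothing of the level of the transcript.

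All libraries were labelled as MSCLCs, an abbreviation that the labels do not explain, and the series title names the fusion oncogene EWS::FLI1 of Ewing sarcoma, the growth factor IGF-1 and mesenchymal stem cells of bone. The genotype labels gave 4 libraries of Wt, 1 of Wt_IGF1, 4 of EF, 2 of EF_IGF1 and 1 of EF_IGF1_xeno. EF is not spelled out in the sample labels, and neither an age, a dose or time of IGF1 nor the meaning of xeno is given there. The titles named the cultures WT_1, WT_2, BM and S_203 for Wt replicates 1 to 4, and BM for the Wt_IGF1 library. EF replicates 1 and 3 carried the culture name S_220 and EF replicates 2 and 4 the name S_221, so the 4 EF libraries came from 2 cultures. EF_IGF1 replicates 1 and 2 were S_220 and S_221, and the xeno library was S_221. Wt replicates 1 and 2 and EF replicates 1 and 2 came from flowcell BSF_0654 and the remaining 8 from BSF_1013. Nothing in the labels says that libraries came from separate animals, so p-values measure only the spread between these libraries.

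The libraries differed in depth as far as the lists show it, with 7748 to 83718 peaks. Wt replicate 1, with 7748 peaks, called 3 of the 192 regions. The peaks of Wt replicate 2 lay in 67.2% of 116 regions of 12 blood cell genes such as Ptprc and Spi1, against 6.9% to 31.0% in the other 11 libraries. In the same library 15% of 226 regions of 12 mesenchymal genes such as Prrx1 and Col1a1 were called, against 0.442% in Wt replicate 1 and 18.6% to 55.8% in the other 10. Regions of 10 endothelial genes were called at 0.0% to 46.5%, those of 10 smooth muscle and pericyte genes at 0.0% to 56.8% and those of 10 epithelial genes at 1.39% to 45.8%, in each case lowest in Wt replicate 1. EF_IGF1 replicate 1, titled S_220, shared more of its calls with EF replicate 4, titled S_221, than with EF replicate 3, titled S_220. The shared fraction of regions called in either library was 0.599 with EF replicate 4 and 0.406 with EF replicate 3 over all regions, and 0.540 and 0.301 over the regions of the 10 genes. Fewer cells of a type and a region less open in each cell cannot be told apart in such libraries. Counts of gained and lost regions are given below with and without each library where leaving it out moved them.

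The promoters of 7 of the 10 genes were in the RefSeq promoter table (GRCm38.p6), with 8 entries in all, and Thy1, Ly6a and Vcam1 were not matched. The 4 shown here were chosen because calls over their starts ranged from 12 libraries at Alcam through 11 at Kitl and 7 at Cxcl12 to 1 at Eng. Each sequence is the 250 bases before the start site, at chr16:52453082-52453331 (minus strand), chr10:100015571-100015820 (plus strand), chr6:117168285-117168534 (plus strand) and chr2:32646345-32646594 (plus strand). Capitals mark the GC box (GGGCGG), the CCAAT box (CCAAT) and the TATA box (TATAAA), on either strand.
Alcam: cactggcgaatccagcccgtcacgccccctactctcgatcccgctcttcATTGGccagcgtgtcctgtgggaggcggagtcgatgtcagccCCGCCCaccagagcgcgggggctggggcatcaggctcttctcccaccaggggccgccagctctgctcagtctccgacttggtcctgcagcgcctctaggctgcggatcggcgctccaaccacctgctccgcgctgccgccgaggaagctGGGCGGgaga
Kitl: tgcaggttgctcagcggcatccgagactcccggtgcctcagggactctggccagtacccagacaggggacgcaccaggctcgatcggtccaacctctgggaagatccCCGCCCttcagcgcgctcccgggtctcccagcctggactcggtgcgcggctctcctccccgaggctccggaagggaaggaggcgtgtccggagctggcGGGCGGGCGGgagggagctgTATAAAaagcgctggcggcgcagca
Cxcl12: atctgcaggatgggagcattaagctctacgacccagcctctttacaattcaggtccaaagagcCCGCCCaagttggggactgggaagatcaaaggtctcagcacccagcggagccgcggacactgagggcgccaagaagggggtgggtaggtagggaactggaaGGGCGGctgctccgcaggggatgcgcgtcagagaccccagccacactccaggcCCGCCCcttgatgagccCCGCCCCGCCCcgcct
Eng: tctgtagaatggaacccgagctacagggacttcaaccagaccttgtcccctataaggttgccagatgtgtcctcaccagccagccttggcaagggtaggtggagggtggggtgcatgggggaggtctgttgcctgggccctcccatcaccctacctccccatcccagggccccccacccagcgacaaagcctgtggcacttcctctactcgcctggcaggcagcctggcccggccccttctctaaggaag

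The Cxcl12 promoter held 5 GC boxes, the letters read by Sp-family factors, and the last 2 began 16 and 11 bases before the start and overlapped. Kitl held 3 GC boxes and was the only one of the 8 promoters with a TATA box, which began 25 bases before the start. Alcam held 2 GC boxes and a CCAAT box that began 201 bases before its start, and Eng held none of the 3 boxes. In the whole 300-base entries of the table, which run 50 bases past the start, 6 of the 8 held a GC box, against 35.7% of 32851 promoters. The CCAAT box was in 2 of 8 (37.4% of all promoters) and the TATA box in 1 of 8 (13.6%). The promoters were rich in C and G, with 69.7% at Alcam, 68.7% at Kitl, 64.7% at Cxcl12 and 63.3% at Eng, against a median of 52.7% over all promoters. They differed in CpG dinucleotides, with 25 at Alcam, 28 at Kitl and 20 at Cxcl12 but 6 at Eng, against a median of 7. An E-box (CANNTG) was in 5 of 8 (72.3% of all) and the NFI letters (TTGGCA) in 2 of 8 (14.1%). The letters searched for AP-1 (TGANTCA), ETS (CCGGAAGT), a GGAA repeat (GGAAGGAA), TEAD (ACATTCC), RUNX (TGTGGTT), C/EBP (TTGCNNCAA) and EBF (CCCNNGGG) were in none of the 8. These letters were in 2.08% (C/EBP) to 13.7% (EBF) of all promoters. ETS and GGAA repeat letters share their core, and a match is a description of the sequence only.

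The share of the 192 regions that each library called followed the share of all regions it called. Wt replicates 1 to 4 called 3, 62, 70 and 93 of the 192 regions, or 1.56%, 32.3%, 36.5% and 48.4%, where the same libraries called 4.87%, 38.4%, 35.3% and 43.7% of all regions. EF replicates 1 to 4 called 54, 32, 69 and 89, or 28.1%, 16.7%, 35.9% and 46.4%, beside 32.5%, 16.7%, 32.9% and 42.4% of all regions. The Wt_IGF1 library called 90 (46.9%, all regions 51.9%), EF_IGF1 replicates 1 and 2 called 65 and 66 (33.9% and 34.4%, all regions 36.8% and 39.5%), and the xeno library called 60 (31.2%, all regions 26.7%). The 10 genes were above the share over all regions in 5 of the 12 libraries, in 2 Wt, 2 EF and the xeno library. Wt and EF overlapped widely, with 57.0 ± 38.3 regions called in Wt and 61.0 ± 24.1 in EF (mean ± SD, n = 4 each). On BSF_1013 alone, without Wt replicates 1 and 2, the counts were 70 and 93 in Wt and 69 and 89 in EF.

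**Figure D1:**
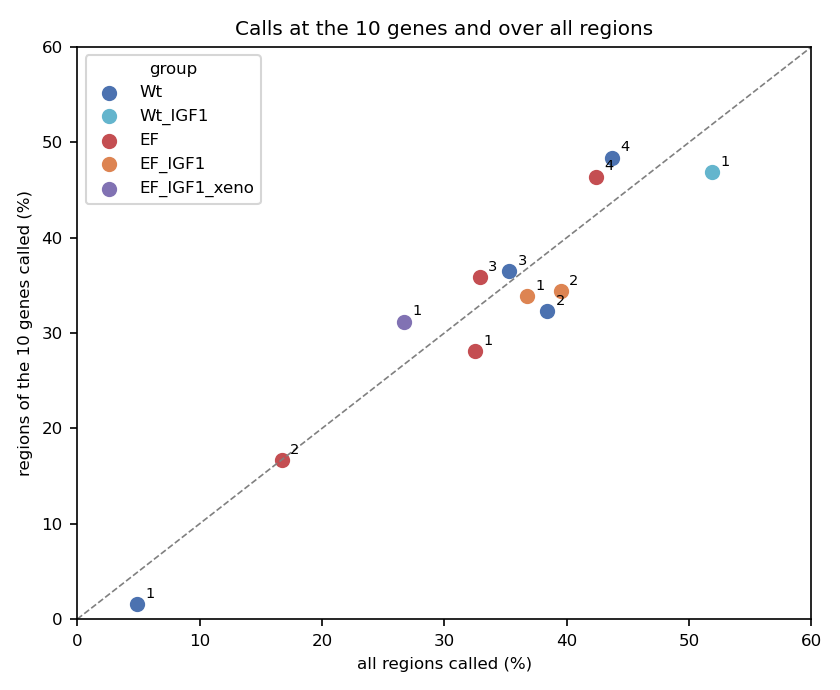
Each point is 1 library, with the percent of all 153346 regions it called on the horizontal axis and the percent of the 192 regions of the 10 genes on the vertical axis, coloured by group and numbered by replicate. The dashed line marks equal percentages. The points lie along it from Wt replicate 1 (4.87% and 1.56%) to the Wt_IGF1 library (51.9% and 46.9%), and the xeno library stands above it (26.7% and 31.2%).

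Few regions of these genes were called in every library. That count was bounded by Wt replicate 1, the list of 7748 peaks, which called 3 of the 192 regions. Each of the regions called in exactly 11 libraries lacked a call in Wt replicate 1 alone. All 12 libraries called 2 of the 192 regions (1.04%), against 3.77% of all regions, and 11 or more called 12 (6.25%), against 8.31%. A single library called 61 (31.8%), against 36.3% of all regions. The 2 regions called everywhere were the start of Alcam and a site upstream of Cd44. Of the 192 regions, 82 (42.7%) lay in or over an end of their gene, against 55.3% of all regions, and the median region was 434.5 bp wide, against 412. Among the 131 regions called in at least 2 libraries, 15 (11.5%) were called in Wt or Wt_IGF1 libraries alone and 19 (14.5%) in EF, EF_IGF1 or xeno libraries alone. The same shares over all regions called in at least 2 libraries were 14.1% and 15.6%.

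**Figure D2:**
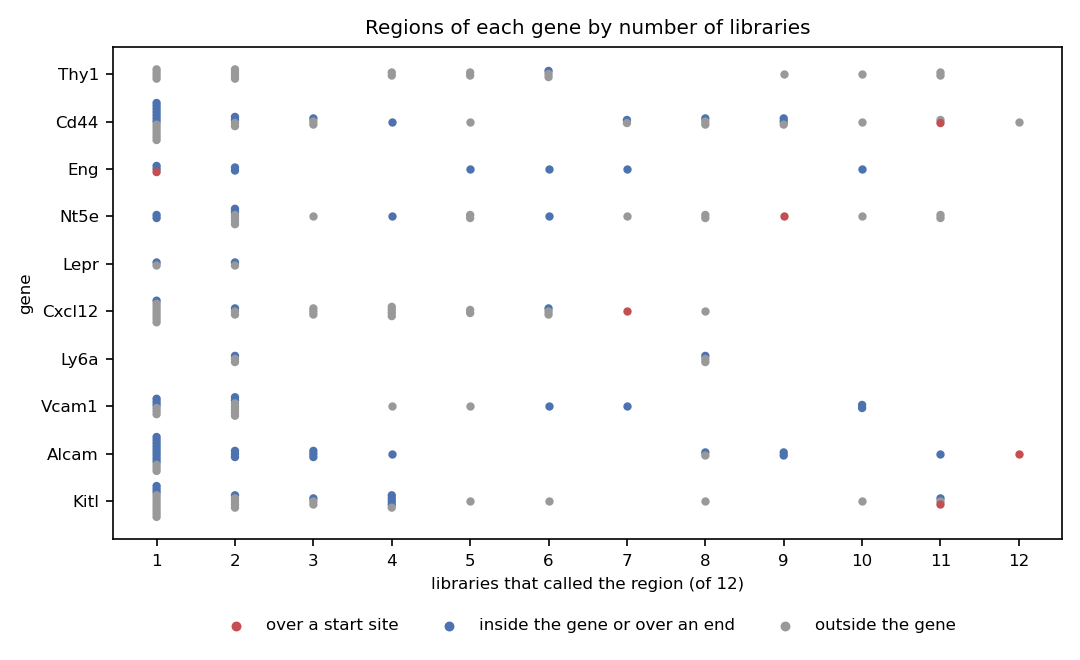
Each point is 1 region, placed by its gene and by the number of the 12 libraries that called it, with colour for its place relative to the gene. Cd44 and Alcam each have 1 region called in 12 libraries, no Cxcl12 or Ly6a region passes 8, and the 4 Lepr regions were called in 1 or 2 libraries.

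Thy1 encodes a small GPI-anchored surface glycoprotein (chr9:44043384-44048579). Of its 19 regions, Wt replicates 1 to 4 called 0, 3, 7 and 10, the Wt_IGF1 library 12, EF replicates 1 to 4 called 7, 4, 13 and 11, EF_IGF1 replicates 1 and 2 called 7 and 8, and the xeno library 7. EF replicate 3 was highest and Wt replicate 1 lowest, and the Wt and EF ranges overlapped. Most Thy1 regions, 16 of 19, lay at lower coordinates than the gene interval. Called in 11 libraries, all but Wt replicate 1, were chr9:43944762-43945930, 97454 bp below the interval, and chr9:44039691-44040209, 3175 bp below it. The peak of the first stood in the top 1.01% of the list of Wt replicate 3 and in the top 33.9% of that of Wt replicate 2, where lists were ranked by the authors' p-value. Between them, chr9:44029631-44030317, 13067 bp below the gene, was called in EF replicates 1, 3 and 4, in the Wt_IGF1 library and in the xeno library. It was called in none of the 4 Wt and neither of the 2 EF_IGF1 libraries. The peak was in the top 26.4% to 41.3% of the 3 EF lists but at 99.1% from the top in the Wt_IGF1 list and at 85.1% in the xeno list, near the end of both. A separate region just above it, 12714 bp below the gene, was called in Wt replicate 4 and EF replicate 4. The absence from Wt thus rests on where the first of these 2 regions ends.

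Cd44 is the main surface receptor for hyaluronan (chr2:102811141-102901669, minus strand). It had 34 regions, the most of the 10 genes, of which Wt replicates 1 to 4 called 1, 15, 14 and 24, the Wt_IGF1 library 15, EF replicates 8, 8, 12 and 15, EF_IGF1 replicates 10 and 14, and the xeno library 12. Wt replicate 4 stood highest, and the EF counts lay inside the Wt range. The start of Cd44 (chr2:102900473-102902159) was called in 11 libraries, all but Wt replicate 1. Upstream, chr2:102943677-102944844, 42008 bp from the gene, was called in all 12. Its peak was in the top 5.26% of each list but that of Wt replicate 1, where it stood at 26.3%. Inside the gene, chr2:102863312-102863958 was called in Wt replicates 2, 3 and 4 and in the Wt_IGF1 library and in none of the 7 EF, EF_IGF1 and xeno libraries.

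Eng, the co-receptor endoglin of the TGF-beta family (chr2:32646595-32682669, plus strand), had 9 regions, all in or over an end of the gene. Wt replicates 1 to 4 called 0, 4, 5 and 3 of them, the Wt_IGF1 library 4, EF replicates 2, 1, 2 and 3, EF_IGF1 replicates 4 and 4, and the xeno library 3. The start region (chr2:32646437-32647011), whose promoter sequence is shown above, was called in 1 library, Wt replicate 2, the library with the widest calls at blood cell genes. Starts called in Wt replicate 2 alone made up 1.56% of 32619 starts. Within the gene, chr2:32679895-32680835 was called in 10 libraries, all but Wt replicates 1 and 2. It was among the strongest peaks of these lists, in the top 0.0553% of EF replicate 1, the top 1.48% or better of 9 lists and the top 7.52% of the xeno list.

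Nt5e is the surface enzyme that turns AMP into adenosine (chr9:88327609-88372089, plus strand). Its 20 regions were called 1, 9, 7 and 12 times in Wt replicates 1 to 4, 8 times in the Wt_IGF1 library, 5, 5, 7 and 11 times in EF, 13 and 11 times in EF_IGF1 and 12 times in the xeno library. The EF_IGF1 and xeno libraries lay at or above the highest EF replicate. Among 1557 genes with 20 or more regions, Nt5e was at or above 98.5% of genes in EF_IGF1 replicate 1, 87.9% in EF_IGF1 replicate 2 and 99.3% in the xeno library, beside 34.7%, 87.5%, 67.2% and 82.2% in EF replicates 1 to 4 and 90.6% in Wt replicate 4. EF replicate 2 and Wt replicate 4 thus stood about as high as EF_IGF1 replicate 2. This comparison with other genes was chosen after the values were seen. The start (chr9:88327220-88327994) was called in 9 libraries, all but Wt replicate 1 and EF replicates 1 and 2, and in 5 when each list was cut to its 20000 strongest peaks. Called in 11 libraries were chr9:88241458-88242021, 85588 bp upstream, and chr9:88276938-88277445, 50164 bp upstream.

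Ly6a (chr15:74994877-74998031) encodes Sca-1, a GPI-anchored surface antigen, and lies in a cluster of related Ly6 genes. Reads from near-identical copies may be split or dropped there, and the aligner's treatment of them was not analysed here. Its 6 regions were called 0, 0, 3 and 3 times in Wt replicates 1 to 4, 4 times in the Wt_IGF1 library, 2, 1, 2 and 4 times in EF, 4 and 3 times in EF_IGF1 and 4 times in the xeno library. Both Wt libraries on BSF_0654 were at 0 and every other library called at least 1. Of 3 Ly6a regions called in 8 libraries, chr15:74995344-74996354 lay inside the gene and was called in all 5 groups.

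Vcam1 is the adhesion molecule that binds integrins on blood cells (chr3:116110020-116129688). Of 19 regions, Wt replicates 1 to 4 called 0, 5, 5 and 6, the Wt_IGF1 library 8, EF replicates 4, 3, 4 and 9, EF_IGF1 replicates 7 and 5, and the xeno library 6. EF replicate 4 and the Wt_IGF1 library were highest. Inside the gene, the neighbouring regions chr3:116113550-116114283 and chr3:116114392-116115095 were called in 10 libraries, all but Wt replicates 1 and 2. Within these lists the second stood between 12.2% (EF_IGF1 replicate 1) and 74.1% (Wt replicate 3) from the top.

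Alcam is an adhesion molecule that binds itself and Cd6 (chr16:52248996-52453081, minus strand). Wt replicates 1 to 4 called 1, 11, 5 and 4 of its 25 regions, the Wt_IGF1 library 8, EF replicates 8, 4, 7 and 15, EF_IGF1 replicates 13 and 4, and the xeno library 8. Wt replicate 2, EF replicate 4 and EF_IGF1 replicate 1 were high, and the 2 EF_IGF1 libraries stood far apart. The start, chr16:52452653-52453565, was called in all 12 libraries, and its peak was in the top 1.27% to 9.67% of each list. Of all 32619 starts in the table, 18.5% lay in a region called in all 12 libraries.

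Cxcl12 is the chemokine that keeps blood stem cells in the marrow (chr6:117168535-117181368, plus strand). Wt replicates 1 to 4 called 0, 2, 12 and 17 of its 25 regions, the Wt_IGF1 library 12, EF replicates 9, 1, 12 and 10, EF_IGF1 replicates 1 and 6, and the xeno library 0. Wt replicates 3 and 4, the Wt_IGF1 library and EF replicates 1, 3 and 4 called 9 or more, and the EF_IGF1 and xeno libraries 6 or fewer. Wt replicates 1 and 2 and EF replicate 2, the shortest list of its group, were as low as EF_IGF1. The start of Cxcl12 (chr6:117168449-117169291) was called in 7 libraries, Wt replicates 2, 3 and 4, the Wt_IGF1 library and EF replicates 1, 3 and 4, and in no EF_IGF1 or xeno library. Its peaks were weak to moderate, between 32.8% and 95.1% from the top of their lists, and with the 20000 strongest peaks of each list no library called the start. Of 11581 starts called in both EF replicates 3 and 4, 258 (2.23%) were called in neither EF_IGF1 library nor the xeno library. The region called most widely, chr6:117267927-117268761, lay 86559 bp downstream and was called in 8 libraries, none of them the xeno library.

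Set against 1557 genes with 20 or more regions, the xeno library's 0 of 25 was shared by 35 genes (2.25%), and 27 genes (1.73%) were at or below the 1 of 25 of EF_IGF1 replicate 1. EF_IGF1 replicate 2 was less extreme, with 318 genes (20.4%) at or below its 6 of 25. In Wt replicates 2, 3 and 4 Cxcl12 was at or above 11.6%, 89.1% and 97.4% of these genes, in the Wt_IGF1 library 39.7%, and in EF replicates 1 to 4 73.2%, 12.1%, 93.3% and 45.3%. The untreated EF libraries thus ranged from low to high, with the S_221 libraries, replicates 2 and 4, below the S_220 libraries. This comparison with other genes, too, was chosen after the values were seen. Ranks near an end were not particular to Cxcl12. In Wt replicate 4, Cd44 was at or above 98.7% of these genes and Alcam at or above 3.28%. Kitl lay between 11.8% (EF_IGF1 replicate 1) and 80.7% (the Wt_IGF1 library). Lists were also cut to their 40000 strongest peaks, an alternative added after seeing the data, which left out the 2 shorter lists. Then Cxcl12 had 1, 10 and 9 regions in Wt replicates 2 to 4, 9 in the Wt_IGF1 library, 5, 12 and 3 in EF replicates 1, 3 and 4, 0 and 3 in EF_IGF1 and 0 in the xeno library. EF replicate 4 was then as low as EF_IGF1 replicate 2, so the EF and EF_IGF1 counts met. EF_IGF1 against EF, 2 libraries against 2, was not tested.

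**Figure D3:**
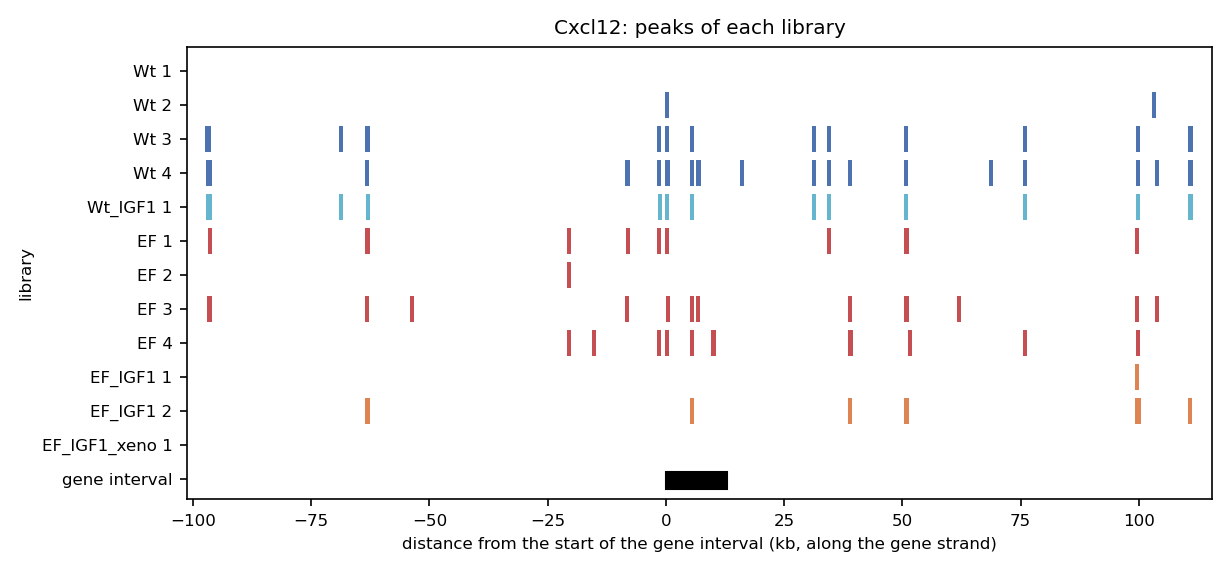
Each row is 1 library and each bar a peak at Cxcl12, by distance in kb from the start of the gene interval along its strand, with the gene interval in black. Wt replicates 3 and 4 and EF replicate 3 carry peaks on both sides of the gene (12, 17 and 12 regions), EF_IGF1 replicate 1 has 1 region and the xeno library none.

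Kitl, the ligand of Kit, spans chr10:100015615-100100416 on the plus strand. Wt replicates 1 to 4 called 0, 13, 12 and 14 of its 31 regions, the Wt_IGF1 library 19, EF replicates 9, 5, 10 and 9, EF_IGF1 replicates 5 and 11, and the xeno library 5. Each EF count lay below those of Wt replicates 2, 3 and 4 and above that of Wt replicate 1. The start (chr10:100015409-100016753), with the TATA box shown above, was called in 11 libraries, all but Wt replicate 1, and stood between 13.8% and 47.5% from the top of their lists. The same 11 libraries also called chr10:100160997-100161738, 60581 bp downstream, and chr10:100032501-100033318 inside the gene.

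Lepr, the leptin receptor, spans chr4:101717137-101815352 on the plus strand and had 4 regions, the fewest of the 10 genes. No Wt, Wt_IGF1 or EF replicate 1 to 3 library called any, EF replicate 4 called 2, EF_IGF1 replicate 1 called 1, EF_IGF1 replicate 2 none and the xeno library 3. Calls were thus limited to 3 libraries, and neither start of Lepr in the table was called in any library. Of all starts, 54.3% were called in no library. The strongest Lepr peak was chr4:101723943-101724345 inside the gene, in the top 17.4% of the xeno list and called there alone.

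**Figure D4:**
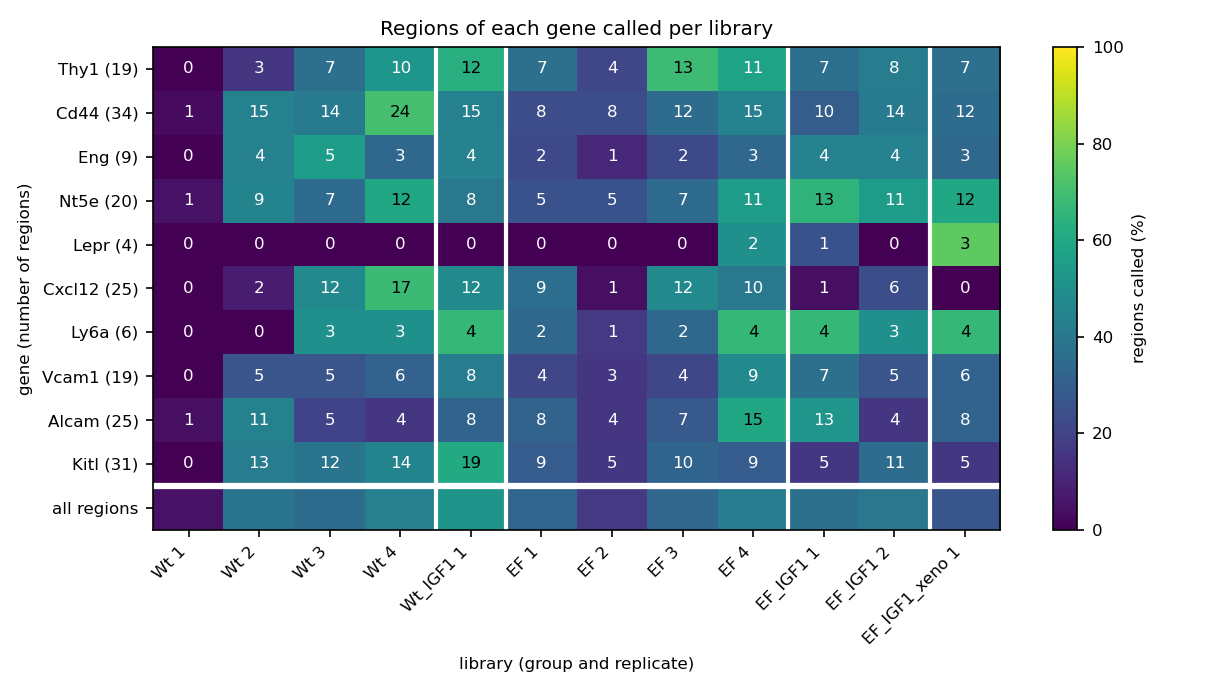
Rows are the 10 genes with their number of regions, columns the 12 libraries, and each cell gives the number of regions called, coloured by the percent called, with the percent over all regions in the last row. Cxcl12 runs from 17 of 25 in Wt replicate 4 to 0 of 25 in the xeno library, and Lepr is at 0 in 9 libraries.

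**Figure D5:**
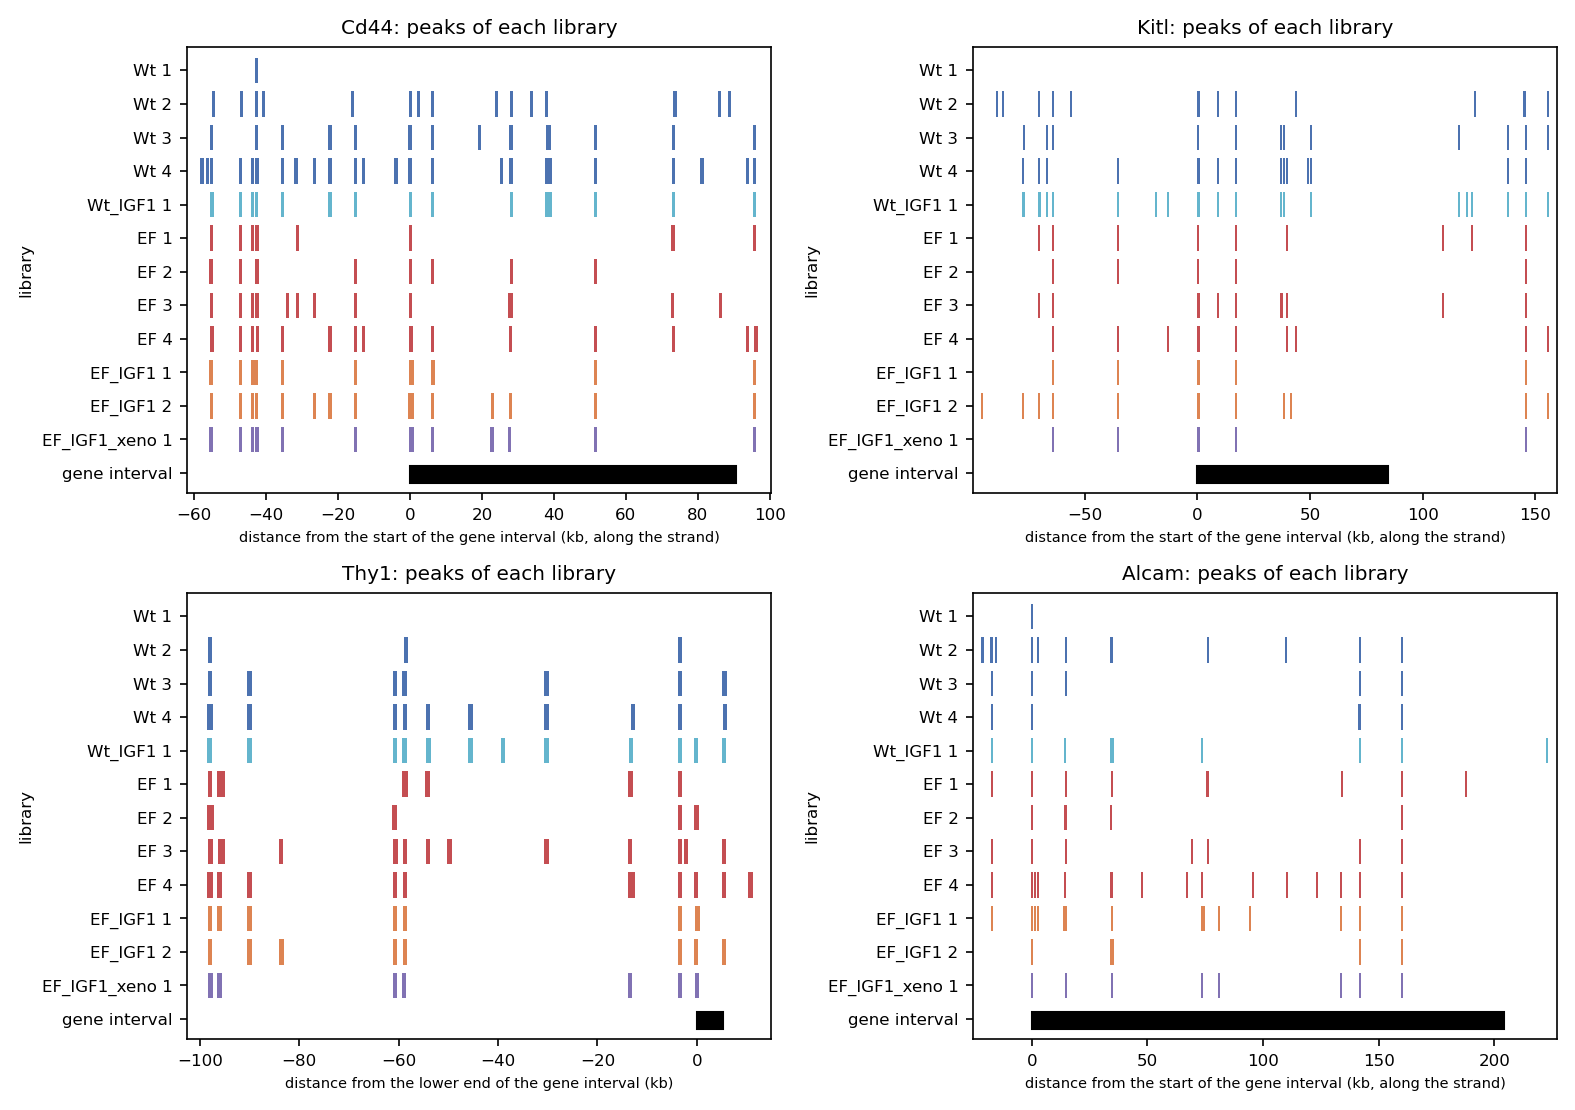
Peaks of each library at Cd44, Kitl, Thy1 and Alcam, 1 row for each library, by distance in kb from the start of the gene interval along the strand (Thy1 from its lower end), with the gene interval in black. The starts of Cd44, Kitl and Alcam line up across 11, 11 and 12 libraries, and most Thy1 peaks lie below the gene.

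The comparison of EF with Wt asked which regions differed with the EF genotype. Under the rule used, 4 of the 192 regions were gained or lost, at Thy1, Cxcl12 and Cd44. Gained means a call in 3 or 4 EF libraries and in 0 of the 4 Wt libraries, and lost means the reverse. Gained were 3 regions (1.56%, all regions 1.19%), the Thy1 regions chr9:43947121-43947471 and chr9:44029631-44030317 and the Cxcl12 region chr6:117147794-117148322, 20213 bp upstream. Lost was 1 (0.521%, all regions 0.938%), the Cd44 region chr2:102863312-102863958. Both shares were near those over all regions. EF replicates 1, 3 and 4 called both Thy1 regions, and EF replicates 1, 2 and 4 the Cxcl12 region. Wt replicate 4 called a separate region just above the second Thy1 region. The gained count was 0 without EF replicate 1 or EF replicate 4 (all regions 0.207% and 0.181%). It was 1 without EF replicate 3 (0.521%, all regions 0.344%) and 3 without Wt replicate 1 (1.56%, all regions 1.19%). Without Wt replicate 2 it was 4 (2.08%, all regions 1.48%) and without Wt replicate 4 it was 8 (4.17%, all regions 2.45%). The lost count was 2 without EF replicate 4 (1.04%, all regions 1.75%) and 1 without Wt replicate 1 (0.521%, all regions 0.878%). It was 0 without Wt replicate 2, 3 or 4 (all regions 0.0567%, 0.0822% and 0.0919%). Where a library of the calling group was left out, all 3 that remained had to call the region.

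Flowcell divided both groups. Within BSF_1013, where 2 of 2 EF against 0 of 2 Wt libraries were needed, 2 regions were gained, both at Thy1 (1.04%, all regions 1.91%). In the same flowcell 12 were lost (6.25%, all regions 4.57%), 5 at Kitl, 3 at Cxcl12, 2 at Cd44, 1 at Eng and 1 at Nt5e. Within BSF_0654, which held Wt replicates 1 and 2, 8 were gained (4.17%, all regions 4.09%) and 1 was lost (0.521%, all regions 0.49%). Leaving out Wt replicates 1 and 2 together, an alternative added after seeing the data, gave 4 gained and 11 lost regions. The share over all regions was not counted without this pair, so the 11 lost regions cannot be set against it. Within BSF_1013, which has the same 2 Wt libraries, the lost share over all regions was 4.57%, against 0.938% with both flowcells. The number of calls that the rule asks for changed together with the libraries in these settings, so their parts in the counts cannot be told apart.

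Per gene, the number of regions called per 10000 regions called in the library was compared by an exact two-sided permutation test. It ran over 70 label orders, where the smallest possible p is 0.0286. The test took each library as independent, although the 4 EF libraries came from 2 cultures, so it does not measure the spread between cultures. Adjusted over 18218 genes, a p of 0.0286 stays above 0.05 unless most genes share it, so the design all but fixed the outcome. None of these genes reached an adjusted p under 0.05 (0.0% of genes, smallest adjusted p 0.754). Without adjustment 690 genes (3.79%) did, 514 (2.82%) higher and 176 (0.966%) lower in EF, and none of the 10 genes was among them. Thy1 came nearest, with 1.81 ± 0.526 in EF and 0.824 ± 0.694 in Wt (mean ± SD, n = 4 each), a difference of 0.986 (p = 0.0571, adjusted p = 0.837, exact permutation). The EF values were 1.4, 1.56, 2.58 and 1.69 and the Wt values 0, 0.51, 1.29 and 1.49, so Wt replicate 4 reached into the EF range. The difference at Thy1 was 1.21 without Wt replicate 4 (p = 0.0286, exact permutation), 0.712 without Wt replicate 1 (p = 0.114) and 0.389 with the 20000 strongest peaks of each list (p = 0.514, exact permutation). With numbers of regions not divided by the library's calls its p was 0.257. The other 9 genes had unadjusted p from 0.2 (Alcam) to 1.0 by the same exact test. Kitl was at 1.78 ± 0.276 in EF and 1.63 ± 1.09 in Wt, and Cxcl12 at 1.53 ± 0.836 and 1.27 ± 1.29, differences smaller than the spread within each group. With the 20000 strongest peaks of each list the Kitl difference was 0.899 (p = 0.0286, exact permutation), against 0.154 with the full lists. It was -0.389 without Wt replicate 1 (p = 0.0857, exact permutation), so its direction turned with the library of 7748 peaks. At 4 libraries a group with such unequal lists, a difference at these genes was not detectable, which does not show that there was none.

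The comparison of EF_IGF1 with EF addressed IGF1 in EF cells, and was kept to the 4 libraries on BSF_1013. It had 2 gained and 4 lost regions, the latter spread over 4 genes. A region was gained when called in 2 of 2 EF_IGF1 and 0 of 2 EF libraries. Gained were 2 (1.04%, all regions 2.7%), chr2:32671947-32672560 inside Eng and chr9:88357206-88358004 inside Nt5e, both also called in the xeno library. Lost were 4 (2.08%, all regions 2.08%), the start of Cxcl12, chr2:102827893-102828896 inside Cd44, chr10:100055154-100055531 inside Kitl and the Thy1 region at chr9:44029631-44030317. The lost share equalled that over all regions and the gained share was under it. Wt replicate 3 and the Wt_IGF1 library also called both gained regions. The gained count was 8 without EF_IGF1 replicate 1 (4.17%, all regions 6.82%) and 11 without EF_IGF1 replicate 2 (5.73%, all regions 6.35%). It was 20 without EF replicate 4 (10.4%, all regions 11.3%), so each gained share stayed under that over all regions. The lost count was 7 (3.65%, all regions 2.79%), 9 (4.69%, all regions 3.65%) and 28 (14.6%, 16041 of 153346 regions) in the same order. Without EF replicate 3 it was 28 (14.6%, all regions 8.42%). Each of these lost shares was above that over all regions. In these settings fewer libraries had to share the call.

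Each EF_IGF1 library was also set beside the EF library of its own culture name. For S_220, EF_IGF1 replicate 1 called 34 regions that EF replicate 3 did not, and lacked 38 that it called, 11 of them at Cxcl12 and 8 at Thy1. For S_221, EF_IGF1 replicate 2 called 13 that EF replicate 4 did not and lacked 36, 11 of them at Alcam and 7 at Cxcl12. The shares called in the EF_IGF1 library alone were 17.7% and 6.77% of the 192 regions, against 16.7% and 8.05% of all regions. The lacking shares were 19.8% and 18.8%, against 12.8% and 10.9% of all regions. These are comparisons of 1 library with 1 and carry no replicate check, and the first rests on the library whose calls were nearer to those of the other culture.

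Wt_IGF1 was 1 library, compared with the 2 Wt libraries of the same flowcell, and no test was possible. It called 15 regions that neither Wt library called (7.81%, all regions 10.6%), 4 at Kitl, 4 at Vcam1, 3 at Alcam, 3 at Thy1 and 1 at Nt5e. The Kitl regions were chr10:99997354-99997597, chr10:100002353-100002734, chr10:100135191-100135398 and chr10:100137363-100137656, the first and second upstream and the others downstream. At Vcam1 they were chr3:116080258-116080595, chr3:116080858-116081203, chr3:116120973-116121309 (inside the gene) and chr3:116138017-116138428. At Alcam they were chr16:52229922-52230285, chr16:52379211-52379625 and chr16:52417959-52419105, the last 2 inside the gene, and at Nt5e chr9:88279830-88280031, 47578 bp upstream. It lacked 3 that both called (1.56%, all regions 0.624%), chr2:32666048-32666358 inside Eng, chr9:88266297-88266719 upstream of Nt5e and chr3:116076406-116077292 near Vcam1. This library had the longest list, 83718 peaks, and 4 of the 15 regions were called in no other library, 1 upstream and 1 downstream of Kitl, 1 downstream of Alcam and 1 below Thy1 (chr9:44004125-44004576). Of the other Thy1 regions, 1 was that at chr9:44029631-44030317, and chr9:44042895-44043685 lay over the lower end of the gene interval, and the 2 EF_IGF1 libraries, the xeno library and EF replicates 2 and 4 also called. The gained count was 24 without Wt replicate 3 (12.5%, all regions 15.9%) and 25 without Wt replicate 4 (13%, all regions 18.5%). The lost count was 27 (14.1%, all regions 7.73%) and 5 (2.6%, all regions 1.98%) in the same order. The gained shares were under those over all regions and the lost shares above them. The counts without Wt replicate 4 set the Wt_IGF1 library beside the Wt library of its own culture name, BM.

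The xeno library was compared with the 2 EF_IGF1 libraries, again with no test. It called 4 regions that neither EF_IGF1 library called (2.08%, all regions 0.794%), 2 at Lepr, 1 at Thy1 and 1 at Vcam1. The Lepr regions were chr4:101715255-101715683, 1454 bp upstream of the gene interval, and chr4:101723943-101724345 inside it. EF replicate 4 also called the first of these, chr3:116126681-116127048 inside Vcam1 and the Thy1 region at chr9:44029631-44030317. The xeno library lacked 3 regions that both EF_IGF1 libraries called (1.56%, all regions 6.83%), the Cxcl12 region 86559 bp downstream, chr2:32661741-32662208 inside Eng and chr9:43953115-43953570 near Thy1. The gained count was 13 without EF_IGF1 replicate 1 (6.77%, all regions 1.98%) and 6 without EF_IGF1 replicate 2 (3.12%, all regions 1.97%). The lost count was 19 (9.9%, all regions 14.8%) and 11 (5.73%, all regions 12.1%) in the same order. At the 192 regions the xeno library shared 0.761 of the regions called in either library with EF_IGF1 replicate 1 and 0.595 with EF_IGF1 replicate 2, although the latter carries its culture name. Over all regions these fractions lay closer together, at 0.638 and 0.595. These comparisons share libraries: EF replicates 3 and 4 stand in the comparisons of EF with Wt and of EF_IGF1 with EF, and the EF_IGF1 libraries in the latter and in that of the xeno library, so a call in 1 library can enter several. The Thy1 region at chr9:44029631-44030317 is such a case, gained in EF, lost in EF_IGF1 and gained in the Wt_IGF1 and xeno libraries.

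Partners of the 10 genes, a list of 18 genes with 254 regions, were counted in the same way. The list held receptors and ligands, and also enzymes such as Entpd1 and Has2 and the signalling gene Socs3. In EF against Wt 2 of the 254 regions (0.787%, all regions 1.19%) were gained, at Itgb1 and Lep, and 6 (2.36%, all regions 0.938%) lost, 2 at Entpd1 and 1 each at Acvrl1, Itga4, Socs3 and Tgfbr2. In the same comparison 7 of the 116 blood cell regions (6.03%) were lost, 2 each at Csf1r, Ikzf1 and Ptprc and 1 at Cd3e, and the part of blood cells in the other losses was not tested. Entpd1 (CD39) makes the AMP that Nt5e uses, Itga4 and Itgb1 form an integrin that binds Vcam1, and Acvrl1 and Tgfbr2 are receptors that work with Eng.

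In EF_IGF1 against EF 12 partner regions were gained (4.72%, all regions 2.7%), 4 of them at Lep, the ligand of Lepr, and 1 at Cxcr4, the receptor of Cxcl12. Lost were 5 (1.97%, all regions 2.08%), 2 of them at Has2, which makes hyaluronan. The Wt_IGF1 library called 24 (9.45%, all regions 10.6%) that neither Wt library called, 5 of them at Kit, and lacked 2 (0.787%, all regions 0.624%). In the xeno library 4 (1.57%, all regions 0.794%) were gained and 18 (7.09%, all regions 6.83%) lost, 5 of these at Itgb1.

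A second list held 25 other stromal and niche genes with 273 regions. In EF against Wt 3 (1.1%, all regions 1.19%) were gained, at Cd9, Cspg4 and Ngfr, and 2 (0.733%, all regions 0.938%) lost, at Csf1 and Pdpn. In EF_IGF1 against EF 4 (1.47%, all regions 2.7%) were gained, 2 at Gas6 and 1 each at Csf1 and Icam1. Lost were 7 (2.56%, all regions 2.08%), 2 at Ngfr and 1 each at Bst1, Csf1, Gas6, Mcam and Pdgfrb. Ngfr, a marker of marrow stroma, thus had calls in both directions, and so had Csf1 and Gas6. The Wt_IGF1 library had 23 gained (8.42%, all regions 10.6%) and 6 lost (2.2%, all regions 0.624%). In the xeno library 5 were gained (1.83%, all regions 0.794%) and 19 lost (6.96%, all regions 6.83%). Of 226 regions of 12 mesenchymal genes, 9 (3.98%, all regions 2.08%) were lost in EF_IGF1, 3 of them at Prrx1 and 2 at Cdh11, and 3 (1.33%, all regions 2.7%) gained. Their part in the calls of the 10 genes was not tested.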

How the data were processed

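Open chromatin was measured by ATAC-seq in 12 libraries of mouse MSCLCs, from 20,000 to 50,000 cells each, read as single ends of 50 bp per the labels' protocols. Peaks were called with MACS2 on GRCm38.p3, per the submitters' processing notes, 1 deposited list for each library. No source used here gives the aligner, the filters or the read totals, and the depth is known only as 7748 to 83718 peaks a list. The deposited fold enrichment (a ratio over background), −log10 p-value, −log10 q-value and score of each peak are the authors' own values, and served only for ranks and limits inside 1 list. The deposited offset column gave the summits.

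Python 3.11.15, NumPy 2.4.6, pandas 2.3.3 and matplotlib 3.10.9 were used. Peaks on chromosomes 1 to 19 and X were merged (1 bp), and regions were assigned to the nearest of 21631 RefSeq protein-coding gene intervals within 100 kb (GRCm38.p6, whose chromosome coordinates are those of GRCm38.p3). The gene interval was matched by symbol for all 10 genes. Gained and lost regions are counts without a test, and genes were compared by an exact permutation test with Benjamini-Hochberg adjustment over 18218 genes, which was tested on simulated data. For each gene the text names the region or tied regions called in most libraries (of 3 at Ly6a only that inside the gene, which had the strongest peak), each region over a start, and each gained or lost region. The members and the gene lists were chosen with earlier results of these data known. Alternatives were a q-value limit, summit windows, shorter lists, a 20 kb limit, single flowcells and cultures, and leaving out each library. The labels and deposited lists give no batch other than flowcell and lane.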

Additional observations from a re-analysis of the deposited data

Results flagged for a closer look

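Libraries that stood far from the other 3 of their group were looked for in 26 groups of 4 values, and 5 were found, all in regions called per 10000 regions called in the library. Eng was highest in EF replicate 4 at 0.462, where the next EF library had 0.401. Lepr was at 0.308 in EF replicate 4 and at 0 in the other EF libraries. Ly6a was at 0.616 in EF replicate 4, with the next at 0.401. In Wt replicate 1, the library with 7748 peaks, Vcam1 was at 0, below the next Wt library at 0.85, and Kitl was at 0, below the next at 2.09. The critical values used mark about 1 in 20 groups by chance where values are continuous. These values are small counts, some at 0, divided by the library's calls, so that rate need not hold here.

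Differences between IGF1 and untreated libraries on BSF_1013 were flagged at 2 genes, where EF and Wt had opposite signs. Such opposite signs were not particular to these genes, as Eng, Alcam, Kitl and Vcam1 had them too. The differences were not tested, and the part of IGF1 in them cannot be told from that of single libraries. Thy1 differed by -0.856 regions per 10000 between EF_IGF1 and EF, and by 0.116 between Wt_IGF1 and Wt. Nt5e differed by 0.519 in EF and by -0.536 in Wt. The Wt_IGF1 group held 1 library.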

How the results depend on the processing

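The Thy1 difference between EF and Wt was positive under each alternative run, down to 0.389 with the 20000 strongest peaks, while the Kitl difference turned to -0.389 without Wt replicate 1 and to -1.5 with undivided numbers of regions. Counts of gained and lost regions are small and moved by more than 1.5 times in many settings. The shares over all regions changed between settings as well. Where leaving out a single library moved a count by more than 1.5 times, and for flowcells and cultures, they stand beside the counts in the comparisons above. With Wt replicates 1 and 2 left out together, the share over all regions was not counted. In EF against Wt, 3 gained regions became 1 with a limit of 20 kb, 8 within BSF_0654 and 0 to 8 when single libraries were left out. The 1 lost region became 0 with the 20000 strongest peaks of each list, 12 within BSF_1013, 11 without Wt replicates 1 and 2 together, and 0 to 2 when single libraries were left out. In EF_IGF1 against EF, 2 gained regions became 34 within S_220 and 13 within S_221, with 2 to 20 when single libraries were left out. The 4 lost regions became 1 with the 20000 strongest peaks, 38 and 36 within the 2 cultures, and 7 to 28 when single libraries were left out. For the Wt_IGF1 library, 15 gained regions became 3 with the 20000 strongest peaks, 9 at 20 kb and 24 to 25 with a library left out, and 3 lost regions became 1 at 20 kb and 5 to 27. For the xeno library, 4 gained regions became 2 with the 20000 strongest peaks and 6 to 13 with a library left out, and 3 lost regions became 1 with a −log10 q of 5 or more, 0 with the 20000 strongest peaks, 1 at 20 kb and 11 to 19. The number of libraries in which the 10 genes were called more often than all regions went from 5 to 3 at 20 kb. No gene passed the adjusted test in any setting run, where so few label orders left little room to pass. Between 51 and 1069 genes had an unadjusted p under 0.05 in the settings with 35 or 70 label orders. With label orders kept within flowcells (36 orders, smallest p 0.0556) no gene could reach that level. Among the 10 genes, 1 reached it with the 20000 strongest peaks (Kitl, 0.899) and 1 without Wt replicate 4 (Thy1). The Thy1 difference ranged from 0.712 to 1.21 when single libraries were left out. Fewer libraries to share a call, shorter lists and a nearer limit change these counts by construction, and any further cause was not tested. No paired analysis was possible because the replicate numbers were given in accession order, and the groups that culture names do pair (EF_IGF1 with EF, Wt_IGF1 with Wt) were compared by counts of calls with no test. Their counts within a culture are those within S_220 and S_221 and, for BM, those without Wt replicate 4 (25 gained, 5 lost).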
